A study of Mus musculus with 17 samples.

Results

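Prominin-selected cortical cells with high GFP were compared with Prominin-selected cells with low GFP, gene by gene, at embryonic day 14 (E14). The members were all arrays whose titles name E14 cortex, a GFP gate and Prominin+, which gave 4 GFP-high and 3 GFP-low arrays, 7 of the 17 arrays of the series. All were sorted by flow cytometry from embryos of hGFAP eGFP mice, whose green fluorescent protein is expressed under the promoter of human GFAP, and every library of the 7 was labelled with the MessageAmp II kit. The transgene is carried by the cells of both groups, which differ in the GFP gate alone as far as the labels say. GFP reports the activity of the human promoter and not of the mouse Gfap gene, and the labels give neither the bounds of the gates nor the number of cells or embryos behind a sample. Because the labels do not state that samples came from separate litters, the p-values rest on the spread among the samples alone, and that spread may be technical. The other groups used are 4 arrays of E18 GFP+ Prominin+ cells, which enter the fit for the estimate of spread only, and 3 GFP-high and 3 GFP-low arrays of E14 cells whose labels name no Prominin gate. By its title the series is about radial glial subtypes, and the contrast asks how cells of both GFP levels differ when both carry Prominin.

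Radial glia are the stem and progenitor cells of the embryonic cortex. Their cell bodies lie next to the ventricle, where a small apical membrane domain carries Prominin-1, and their long basal processes guide migrating neurons. They divide at the ventricular surface and give rise to neurons directly or through basal progenitors, which express Eomes and lack the apical contact. Cajal-Retzius cells are early-born neurons of the cortical surface that secrete Reelin and come from the borders of the pallium, the cortical hem among them. Wnt signals from the hem and the Notch pathway act on the balance between progenitor division and neuronal differentiation.

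Levels are log2 of the intensity plus 16, normalised by quantiles, so 4 is the level of no signal and 6.29 is the median of all genes. Values of single arrays are given in the order of the replicate numbers in the labels. Of the 7 arrays, GFP-high replicate 1 stood apart in its control signals. The difference between 3′ and 5′ Gapdh probe sets, a measure of RNA integrity and labelling, was 0.541 there and 1.56 to 1.71 on the other GFP-high arrays, against 0.923 to 2.30 on the GFP-low arrays (two-sided exact permutation test, p = 0.543, smallest possible p = 0.0571). Its signal for the dap spike-in was 4085, against 3.85 to 22.3 on the other 6. GFP-low replicate 3 stood apart across genes: it lay at 54.9 on the first principal component, which held 29.6% of the variance, against −30.8 to 7.30 for the others. Its correlation with the other 6 was 0.948 to 0.964. Results are therefore also given without these arrays.

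In 18193 genes tested with limma, 305 passed an adjusted p (Benjamini-Hochberg) of 0.05. Of these, 87 genes (0.478%) were higher in GFP-high cells and 218 genes (1.20%) were lower. At least a doubling was reached by 22 of the higher genes, and a level at most halved by 108 of the lower genes. The GFP-high and GFP-low arrays did not overlap for any of the 305, while 13.2% of all genes had groups without overlap. At an unadjusted p under 0.05 there were 2440 genes, and the median difference over all genes was −0.01. In 59 called genes the lower mean did not exceed 5.77, the level that Gfap reached in its highest group, and their fold changes depend most on the added constant. In the plot of fold change against p, the lower genes reach further out than the higher ones.

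**Figure D1:**
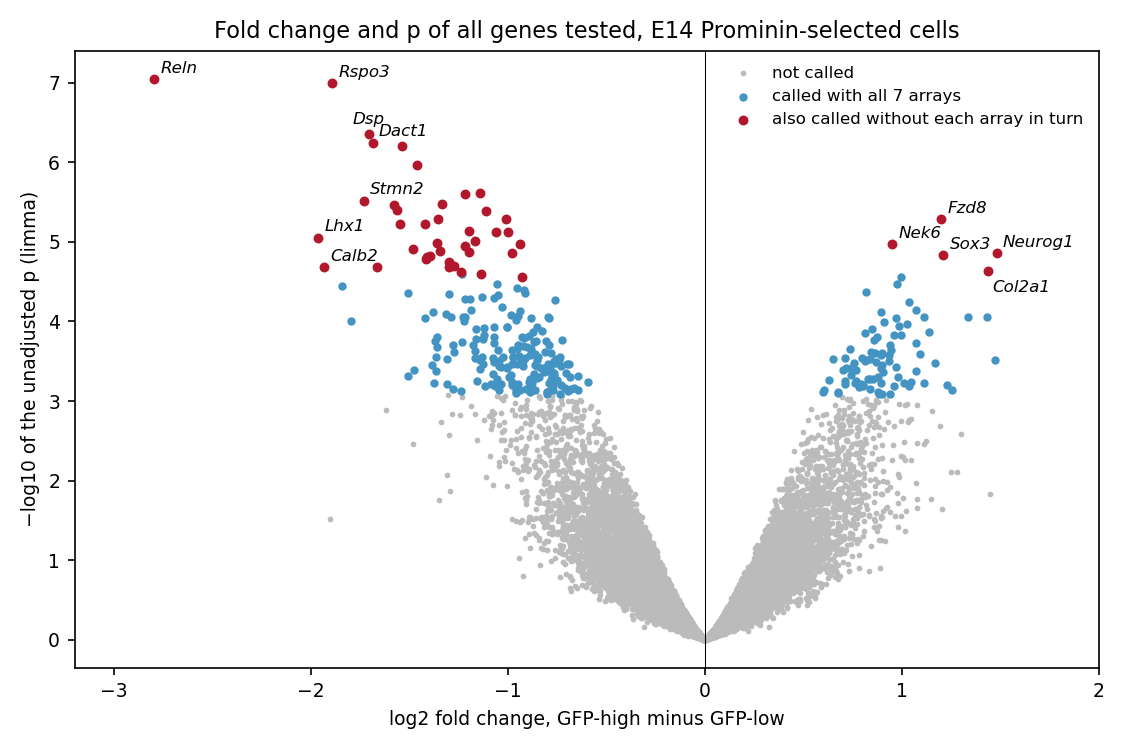
Log2 fold change between GFP-high and GFP-low cells (horizontal axis) against −log10 of the unadjusted limma p (vertical axis) for 18193 genes, 1 point per gene. Grey points were not called, and blue points were called in the main fit, which holds all 7 arrays and the 4 E18 arrays. The 45 red points were also called without each of the 7 arrays in turn. Of these, 40 lie on the left, with Reln at −2.80, and 5 on the right.

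Leaving out single arrays changed the count. It was 129 without GFP-high replicate 1, 228 without replicate 2, 109 without replicate 3 and 76 without replicate 4. Without GFP-low replicates 1, 2 and 3 it was 85, 90 and 78. Only 6 genes were called without both GFP-high replicate 1 and GFP-low replicate 3, and all were lower: Reln, Rspo3, Dact1, Dsp, Ndnf and Camk4. In the full set and in each of the 7 sets with an array left out, 45 genes (0.247%) were called, 5 higher and 40 lower, and these are called kept in all 8 fits. Every other called gene lost its call without at least 1 array.

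**Figure D2:**
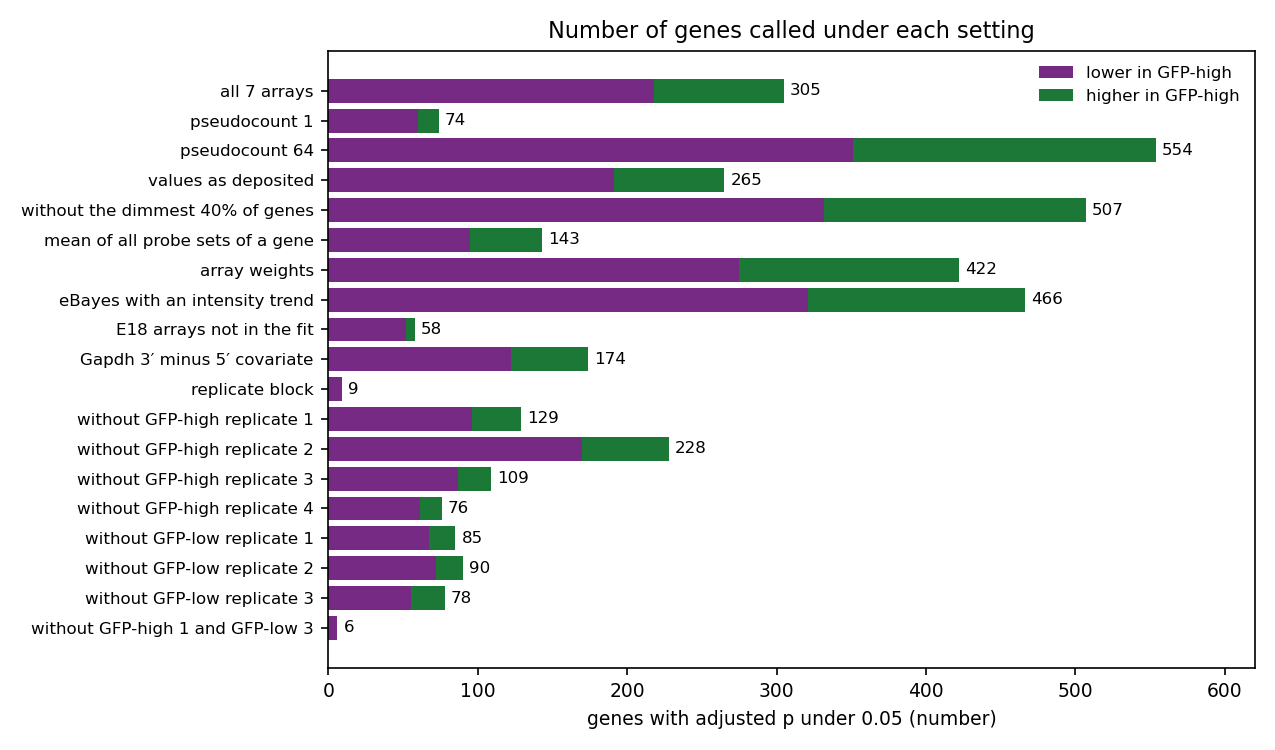
Number of genes with an adjusted p under 0.05 (horizontal axis) under each setting (vertical axis), as stacked bars of genes lower (purple) and higher (green) in GFP-high cells. The bar labelled all 7 arrays is the main fit, which also holds the 4 E18 arrays, and reaches 305. The bars with 1 array left out reach 76 to 228, and that without GFP-high 1 and GFP-low 3 reaches 6. The fit on the 7 arrays alone, without the E18 arrays, reaches 58.

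Among the genes higher in GFP-high cells, those kept in all 8 fits were Neurog1, Sox3, Fzd8, Col2a1 and Nek6. Neurog1, which encodes a proneural bHLH transcription factor, had the largest rise. Its levels were 9.31, 9.22, 8.91 and 9.10 on the GFP-high arrays and 7.93, 7.51 and 7.53 on the GFP-low arrays. All GFP-high arrays lay above all GFP-low arrays, and the difference was 1.48 ± 0.21 (SE), or 2.79-fold (adjusted p = 0.00793). A second and dim probe set of Neurog1 differed by −0.08 (adjusted p = 0.962). Sox3, a SoxB1 transcription factor of neural progenitors, was at 9.25, 8.89, 8.68 and 8.93 against 7.82, 7.72 and 7.64, a 2.31-fold rise (1.21 ± 0.18, adjusted p = 0.00796). Its second, dim probe set differed by −0.26 (adjusted p = 0.802). Fzd8, a Frizzled receptor for Wnt ligands, was at 8.35, 8.25, 8.17 and 8.38 against 7.30, 6.96 and 7.00. That was 2.30-fold (1.20 ± 0.16, adjusted p = 0.00594), and the 4 GFP-high arrays lay close together (SD 0.10). A second Fzd8 probe set, above the median gene in both groups, differed by only 0.504 and was not called (adjusted p = 0.387).

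Col2a1, which encodes a fibrillar collagen chain, was at 7.18, 6.31, 6.39 and 6.91 on the GFP-high arrays and at 5.18, 5.50 and 5.10 on the GFP-low arrays. The GFP-low values were below the highest group mean of Gfap, and the difference was 1.44 ± 0.22 (adjusted p = 0.0101). Nek6, a kinase that acts in mitosis, was at 9.41, 9.34, 9.52 and 9.42 against 8.46, 8.57 and 8.38. This rise of 1.93-fold had a small spread in both groups, with SDs of 0.08 and 0.10 (0.95 ± 0.13, adjusted p = 0.00754). Without both arrays that stood apart, these 5 genes differed by 0.91 to 1.36 and their adjusted p was 0.0584 to 0.0742. All 8 fits hold the E18 arrays, and with the 7 arrays alone Col2a1 was not called (adjusted p = 0.0617). With the mean of probe sets, Neurog1 (0.70, adjusted p = 0.202) and Sox3 (0.47, adjusted p = 0.285) were not called. Further large rises were Gtse1, a microtubule-associated protein of G2 (1.47 ± 0.30), Dlgap5, a spindle assembly factor (1.14 ± 0.21), Inppl1, an inositol phosphatase (1.17 ± 0.24), Lrig1, an inhibitor of the EGF receptor (1.07 ± 0.22), and Bmper, a secreted BMP-binding protein (1.05 ± 0.23). Their adjusted p was 0.0250 to 0.0428. In each of these 5 the call ended in at least 4 of the 7 fits with an array left out, and in all 7 for Bmper and Lrig1. Lrig1 also differed by only 0.44 on the values as deposited, where it was not called (adjusted p = 0.537).

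**Figure D3:**
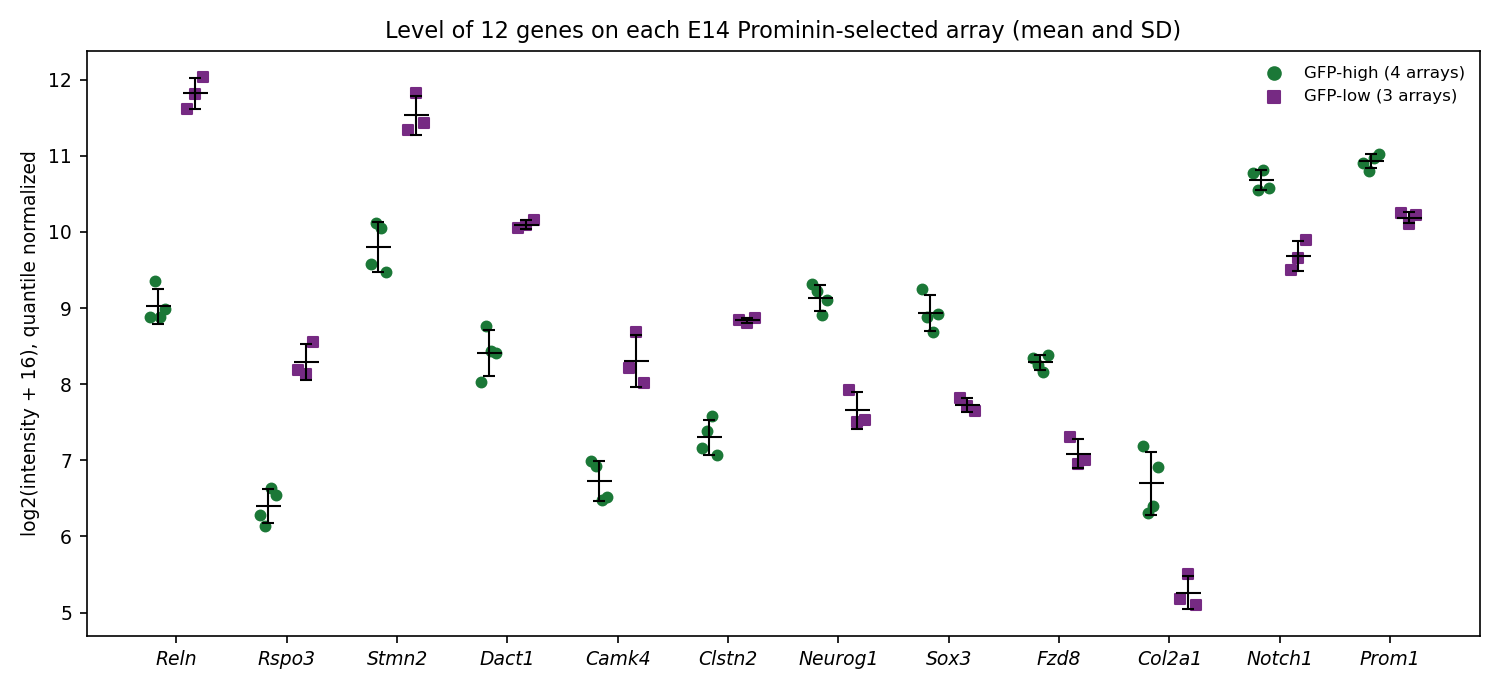
Level of 12 genes as log2(intensity + 16) (vertical axis) on the 4 GFP-high arrays (green circles) and 3 GFP-low arrays (purple squares); black bars give mean and SD. The groups do not overlap for any of the 12: Reln, Rspo3, Stmn2, Dact1, Camk4 and Clstn2 lie lower in GFP-high cells, and Neurog1, Sox3, Fzd8, Col2a1, Notch1 and Prom1 higher.

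Of 28 radial glia genes, 9 rose in GFP-high cells and none fell: Sox3, Notch1, Mfge8, Nr2e1, Sox9, Phgdh, Pax6, Rcn1 and Prom1. The median of the list was 0.74, and 27 of its genes had a positive difference. Over all genes, to be set beside this list and those below, 0.478% rose, 1.20% fell and 8908 of 18193 differences were positive. The summed signal of the list was 31780 to 37530 on the GFP-high arrays and 20610 to 23270 on the GFP-low arrays, so both groups carried radial glia transcripts. Notch1, a receptor that holds cells in the progenitor state, was at 10.78, 10.56, 10.82 and 10.58 against 9.50, 9.65 and 9.90. It rose 2.00-fold (1.00 ± 0.15, adjusted p = 0.0108) and lost its call without GFP-low replicate 1 (adjusted p = 0.0509) and without both arrays that stood apart (adjusted p = 0.0553). Mfge8, a secreted bridging glycoprotein, rose by 0.96 ± 0.18, and Nr2e1, a nuclear receptor that maintains neural stem cells, by 0.93 ± 0.18. Sox9, a transcription factor of neural stem cells and glia, rose by 0.90 ± 0.18 (adjusted p of the 3 genes 0.0264 to 0.0325). With the mean of probe sets Sox9 was not called (0.455, adjusted p = 0.323).

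Prom1, whose protein was the gate shared by both groups, was at 10.91, 10.81, 10.97 and 11.02 in GFP-high cells and 10.25, 10.10 and 10.22 in GFP-low cells. The groups did not overlap, and the difference was 0.74 ± 0.14 (adjusted p = 0.0309), although both levels were far above the median gene. Pax6, a transcription factor of cortical progenitors, was at 9.63, 9.64, 9.94 and 10.30 against 8.88, 9.08 and 9.12, a rise of 0.85 ± 0.18 (adjusted p = 0.0412). Prom1 and Pax6 lost their calls on leaving out any 1 array other than GFP-high replicate 2. With the mean of probe sets Pax6 was not called (0.476, adjusted p = 0.26). Other classic genes of radial glia did not pass the test. Fabp7, a brain fatty acid binding protein, differed by 0.40 ± 0.19 (adjusted p = 0.388), Slc1a3, the glutamate transporter GLAST, by 0.38 ± 0.27 (adjusted p = 0.600) and Gfap by 0.32 ± 0.32 (adjusted p = 0.743). Slc1a3 differed by 0.58 without GFP-high replicate 1, by 0.18 without GFP-low replicate 2 and by 0.73 without both arrays that stood apart (adjusted p = 0.284 to 0.846). Fabp7 differed by 0.60 without both (adjusted p = 0.240), and Gfap by 0.74 and −0.047 without GFP-low replicates 1 and 2. Gfap was near the bottom of the scale in both groups, at 5.42 ± 0.26 and 5.10 ± 0.79. Vim (0.77, adjusted p = 0.123), Nes (0.29, adjusted p = 0.592) and Hes5 (0.78, adjusted p = 0.391) were not called. With arrays left out singly, the number of radial glia genes called was 3, 8, 2 and 3 for GFP-high replicates 1 to 4 and 1, 2 and 4 for GFP-low replicates 1 to 3. It was 0 without both arrays that stood apart, while the median was 0.82. With the 7 arrays alone, without the E18 arrays, Sox3 was the only radial glia gene called (adjusted p = 0.0422). There Notch1 (adjusted p = 0.0562), Prom1 (adjusted p = 0.0807) and Pax6 (adjusted p = 0.114) were not called.

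The Sox family holds transcription factors with a common DNA-binding domain. Of 16 genes, 3 rose, Sox3, Sox9 and Sox13, and none fell. The SoxB1 members Sox1 and Sox2 differed by 0.73 (adjusted p = 0.0730) and 0.70 (adjusted p = 0.0849), and the neuronal SoxC genes Sox4 and Sox11 by −0.02 and −0.24 (adjusted p = 0.976 and 0.519). Of the 26 Notch pathway genes, the receptors Notch1 and Notch3 rose and Dner, a neuronal transmembrane ligand, fell. Notch3 rose by 0.85 ± 0.17 (adjusted p = 0.0319) and Dner fell by 0.84 ± 0.18 (adjusted p = 0.0398). Among ligands and targets, Dll1 differed by 0.32 (adjusted p = 0.565), Hes1 by 0.65 (adjusted p = 0.297), Nrarp by 0.66 (adjusted p = 0.0968) and the glycosyltransferase gene Lfng by 1.03 (adjusted p = 0.0588). Of 11 Hedgehog genes, the co-receptors Cdon (0.86 ± 0.16, adjusted p = 0.0278) and Boc (0.79 ± 0.17, adjusted p = 0.0428) rose, whereas the pathway targets Gli1 and Ptch1 were at 0.03 and −0.27 (adjusted p = 0.968 and 0.507). Of 15 pallial patterning genes, Pax6 and Nr2e1 rose; Emx2 and Lhx2 differed by 0.37 and 0.48 (adjusted p = 0.458 and 0.397). List medians were 0.68 for Sox, 0.32 for Notch, 0.33 for Hedgehog and 0.31 for pallial genes. Of the Sox, Notch, Hedgehog and pallial genes called, only Sox3 was kept in all 8 fits. With the 7 arrays alone, too, only Sox3 was called.

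Of 35 genes of G2 and mitosis, 7 rose in GFP-high cells and none fell: Cdk1, Bub1b, Cdc20, Aurkb, Ccnb2, Ccna2 and Tpx2. All 35 had positive differences, from 0.37 to 1.03 with a median of 0.70, and for 28 the arrays did not overlap. Among all genes 0.478% rose, 8908 of 18193 differences were positive, and 1041 lay higher without overlap. Many promoters of this class carry a CCAAT box, bound by NF-Y, and a TTTGAA element, the cell cycle homology region, which together time expression to late cell cycle. The promoters of 3 called genes are shown because each holds both runs of letters. They are from RefSeq with coordinates in GRCm38.p6, as the 180 bases before the annotated start. They are Cdk1 (chr10:69352913-69353092, minus strand), the mitotic kinase, Cdc20 (chr4:118437344-118437523, minus strand), an activator of the anaphase-promoting complex, and Ccnb2 (chr9:70421555-70421734, minus strand), a B-type cyclin. Capitals mark CCAAT or its reverse complement ATTGG, and TTTGAA or its reverse complement TTCAAA.
Cdk1: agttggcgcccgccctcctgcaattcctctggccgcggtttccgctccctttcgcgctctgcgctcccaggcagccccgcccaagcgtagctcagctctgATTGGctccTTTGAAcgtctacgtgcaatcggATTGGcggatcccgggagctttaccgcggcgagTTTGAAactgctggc
Cdc20: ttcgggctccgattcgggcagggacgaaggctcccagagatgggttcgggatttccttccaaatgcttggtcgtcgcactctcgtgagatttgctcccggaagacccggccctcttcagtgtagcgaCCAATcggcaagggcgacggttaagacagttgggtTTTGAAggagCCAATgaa
Ccnb2: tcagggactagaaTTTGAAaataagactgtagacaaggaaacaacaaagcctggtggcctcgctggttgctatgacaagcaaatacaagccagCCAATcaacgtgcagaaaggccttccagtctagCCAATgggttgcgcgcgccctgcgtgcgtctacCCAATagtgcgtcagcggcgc
In this window 25 of 31 promoters of 29 G2/M genes (80.6%) held CCAAT on either strand, against 27.5% of all 32851 promoters. TTTGAA was in 11 (35.5%) against 11%, and both were in 10 (32.3%) against 3.05%. A match of letters is a description of the sequence and does not show binding, nor that a TTTGAA is the cell cycle homology region. The only TTTGAA of Ccnb2 begins 167 bases before the start, ahead of its CCAAT matches at 87, 54 and 21. That of Cdc20 begins at 18, and those of Cdk1 at 71 and 15.

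Cdk1 was at 9.65, 9.33, 9.44 and 9.68 on the GFP-high arrays and at 8.31, 8.78 and 8.56 on the GFP-low arrays. It rose 1.97-fold (0.97 ± 0.15, adjusted p = 0.0125), with all GFP-high arrays above all GFP-low arrays. Bub1b, a spindle checkpoint kinase, was at 9.29, 9.05, 9.36 and 9.34 against 7.97, 8.35 and 8.35 (1.03 ± 0.17, adjusted p = 0.0162). Aurkb, a kinase of chromosome segregation and cytokinesis, was at 6.92, 6.75, 7.04 and 7.53 against 6.19, 5.93 and 5.99 (1.02 ± 0.18, adjusted p = 0.0224). Cdc20 was at 11.40, 11.23, 11.65 and 11.49 against 10.55, 10.40 and 10.65, and Ccnb2 at 9.64, 9.56, 9.87 and 9.60 against 8.69, 8.77 and 8.99. These rose 1.88-fold (adjusted p = 0.0210) and 1.80-fold (adjusted p = 0.0239). Mki67, the proliferation marker (0.84, adjusted p = 0.0677), and Top2a, a topoisomerase of dividing cells (0.85, adjusted p = 0.0617), did not pass the threshold. No G2/M gene was called in all 8 fits: 6, 6, 2 and 2 were called without GFP-high replicates 1 to 4, and 0, 2 and 3 without GFP-low replicates 1 to 3. Without both arrays that stood apart none was called and the median was 0.81. All of these fits hold the E18 arrays. With the 7 arrays alone no G2/M gene was called (Cdk1 adjusted p = 0.0748, Bub1b 0.0560, Cdc20 0.0685, Aurkb 0.0836).

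Of 38 S phase and replication genes, Cdt1, a licensing factor of replication origins, rose (0.90 ± 0.18, adjusted p = 0.0338) and none fell. Differences were positive in 36 and the median was 0.48. Mcm3 (0.79), Rrm1 (0.74), Pcna (0.47) and Mcm2 (0.36) had adjusted p of 0.0701 to 0.653. Among 16 regulators of G1, Cdk6, a kinase that works with D-type cyclins, rose by 0.82 ± 0.13 (adjusted p = 0.0146), and Cdkn1a, the inhibitor p21, fell by 1.08 ± 0.23 (adjusted p = 0.0383). Cdk6 was at 9.47, 9.38, 9.59 and 9.41 against 8.76, 8.64 and 8.54, and its call was lost without GFP-low replicate 2 or 3. Cdkn1a lost its call without any single array. With the 7 arrays alone, Cdt1, Cdk6 and Cdkn1a were not called (adjusted p = 0.0685 to 0.0814). The D-type cyclin genes Ccnd1 and Ccnd2 differed by 0.31 and −0.14 (adjusted p = 0.511 and 0.834), and Cdkn1c, the inhibitor p57, by 0.17 (adjusted p = 0.828).

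Basal progenitor and proneural genes were present at high levels in both groups. Neurog1 was the only one of 17 called. Eomes was at 12.02, 12.02, 12.03 and 12.11 against 11.59, 11.42 and 11.44, so that the groups did not overlap but the difference of 0.56 ± 0.17 was not called (adjusted p = 0.147). Neurog2, the other main cortical proneural factor, differed by 0.54 (adjusted p = 0.384), Tfap2c, an AP2 transcription factor, by 0.85 (adjusted p = 0.154), and Gadd45g by 0.85 (adjusted p = 0.0945). Neurod1, Insm1, Rnd2 and Nhlh1, which act later in differentiation, lay between −0.04 and 0.07, with adjusted p from 0.899 to 0.988. The list median was 0.49 (0.35 without both arrays that stood apart).

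Genes of Cajal-Retzius neurons had the lowest median of the 32 lists. Of 10 measured, 6 fell and none rose, the median was −1.27, all 10 differences were negative, and 9 had groups without overlap. For all genes, 1.20% fell, 9285 of 18193 differences were negative, and 1366 lay lower without overlap. Reln, which encodes the secreted glycoprotein Reelin, was at 8.88, 9.36, 8.88 and 8.98 on the GFP-high arrays and at 11.62, 11.81 and 12.03 on the GFP-low arrays. All GFP-low arrays lay more than 2 log2 units above all GFP-high arrays, and Reln fell 6.94-fold (−2.80 ± 0.25, adjusted p = 0.000928). A second Reln probe set was near the bottom of the scale in both groups, at 4.88 and 5.01, and did not pass the test (−0.13, adjusted p = 0.939). Reln stayed at high signal in GFP-high cells, with every array above the median gene. In sorted populations, fewer cells of a type and less RNA per cell cannot be told apart.

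Lhx1, a LIM-homeodomain factor of Cajal-Retzius cells, was at 5.18, 4.13, 5.12 and 4.40 against 6.21, 6.91 and 6.90. The GFP-high values were near the bottom of the scale, and the difference was −1.96 ± 0.27 (adjusted p = 0.00731). A second probe set of Lhx1 gave −2.25 (adjusted p = 0.00611). Calb2, the calcium-binding protein calretinin, was at 5.62, 4.94, 4.79 and 5.46 against 6.67, 7.11 and 7.62 (−1.94 ± 0.29, adjusted p = 0.00924). Ndnf, a secreted factor expressed by layer 1 neurons, was at 5.59, 4.51, 4.67 and 4.74 against 6.51, 6.57 and 6.56 (−1.67 ± 0.25, adjusted p = 0.00924). In each of these genes the lowest GFP-low array was above the highest GFP-high array. Reln, Lhx1, Calb2 and Ndnf were kept in all 8 fits. Trp73, a p53 relative of Cajal-Retzius cells, fell by 1.37 ± 0.26 (adjusted p = 0.0279) and Ebf3, a transcription factor, by 0.88 ± 0.19 (adjusted p = 0.0428). Each of these was called in 1 of the 7 fits with an array left out. Cxcr4, the chemokine receptor (−1.17, adjusted p = 0.0671), Nhlh2 (−0.92, adjusted p = 0.122), Lhx5 (−0.79, adjusted p = 0.118) and Ebf2 (−0.52, adjusted p = 0.456) were not called. The summed signal of the list was 865 to 1098 on the GFP-high and 4171 to 5625 on the GFP-low arrays. The sum adds linear signals, and Reln, at log2 levels of 11.62 to 12.03 on the GFP-low arrays, made up most of it there. Without both arrays that stood apart, Reln and Ndnf were still called and the list median was −1.09. With the mean of probe sets Ndnf was not called (−0.766, adjusted p = 0.0755). Dab1, the intracellular adaptor of Reelin signalling in receiving neurons, fell 2.20-fold (8.36 ± 0.24 against 9.49 ± 0.14, adjusted p = 0.0103) and was kept in all 8 fits; it belongs to no list and was picked for its known role after its value was seen.

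Wnt pathway genes moved both ways. Rspo3, an R-spondin secreted by the cortical hem that strengthens Wnt signals and is counted with the hem genes, was at 6.29, 6.14, 6.63 and 6.54 on the GFP-high arrays and at 8.19, 8.13 and 8.56 on the GFP-low arrays. It fell 3.71-fold (−1.89 ± 0.17, adjusted p = 0.000928), and its second probe set differed by −1.25 (adjusted p = 0.0711). Dact1, which binds Dishevelled in the cytoplasm, was at 8.03, 8.77, 8.44 and 8.40 against 10.05, 10.09 and 10.16, a 3.22-fold fall (−1.69 ± 0.18, adjusted p = 0.00225). The GFP-low arrays of Dact1 lay within an SD of 0.06. Rspo3 and Dact1 were kept in all 8 fits and in every other setting run. Apc, a scaffold of the beta-catenin destruction complex, fell 1.81-fold (adjusted p = 0.0279); its other probe sets reached 0.89 in the opposite direction without being called, and the call was lost without 5 of the 7 arrays. Of the receptors, Fzd8 rose by 1.20 and Fzd9 rose by 0.90 ± 0.20 (adjusted p = 0.0491), a call lost without any single array. Of the other Wnt genes, Wnt7a differed by 0.82 (adjusted p = 0.0538), Tcf7l2 by 0.89 (adjusted p = 0.0804), Axin2, a common target, by 0.16 (adjusted p = 0.839) and Ctnnb1, beta-catenin, by 0.04 (adjusted p = 0.944). In all, 2 of 38 Wnt genes rose (Fzd8 and Fzd9) and 2 fell (Dact1 and Apc), with a median of 0.06 (0.11 without GFP-high replicate 1 or 3, 0.14 without GFP-low replicate 1 and 0.13 without GFP-low replicate 2).

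Rspo3 was the only called gene of the 20 in the list of cortical hem and choroid plexus, whose median was −0.24 (−0.14 without GFP-high replicate 2). The hem ligands Wnt3a, Wnt5a and Wnt8b, the hem factor Lmx1a and the choroid plexus gene Ttr had group means from 4.50 to 5.92, all below the median gene. Dsp, which encodes the desmosomal protein desmoplakin, was at 5.11, 4.93, 5.33 and 5.26 against 6.68, 6.74 and 7.16. It fell by 1.70 ± 0.18 (adjusted p = 0.00225), its probe set at similar signal fell by 1.87 (adjusted p = 0.00529), and another at 4.29 and 4.44 did not pass the test (adjusted p = 0.830). Dsp was kept in all 8 fits and in every other setting run, as were Reln, Rspo3 and Dact1 and no other named gene.

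Of 25 genes of the neuronal cytoskeleton, 6 fell in GFP-high cells and none rose: Stmn2, Ina, Gap43, Mapt, Stmn3 and Nefm. The list median was −0.58 and 24 of its differences were negative, while 1.20% of all genes fell and 9285 of 18193 differences were negative. Stmn2, a regulator of microtubules in growing axons, was at 9.58, 10.12, 10.05 and 9.47 on the GFP-high arrays and at 11.35, 11.83 and 11.44 on the GFP-low arrays. It fell 3.32-fold (−1.73 ± 0.22, adjusted p = 0.0057), its second probe set fell by 1.38 (adjusted p = 0.0165), and it was kept in all 8 fits. Ina, a neurofilament subunit of developing neurons, was at 9.96, 10.05, 9.69 and 9.37 against 11.03, 11.19 and 11.16 (−1.36 ± 0.19, adjusted p = 0.00754), and all 3 of its probe sets were called lower. Ina too was kept in all 8 fits. Gap43, a growth cone protein, fell 2.07-fold (adjusted p = 0.0147) and lost its call without GFP-high replicate 4 or GFP-low replicate 2. Tubb3, the neuronal tubulin often used as a marker, was at 10.42 ± 0.19 and 10.84 ± 0.25 and was not called (−0.42 ± 0.19, adjusted p = 0.360; −0.27 without GFP-low replicate 2), and Dcx, a protein of migrating neurons, differed by −0.58 (adjusted p = 0.0606). Without single arrays 2 to 5 genes of this list were called. Without both arrays that stood apart none was, and the median was −0.59.

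Of 27 genes of synapse and vesicle release, Snap25, Syt1, Rab3c and Sv2a fell and none rose (median −0.49, with 25 negative). The share that fell over all genes was 1.20%. Snap25, a membrane fusion protein of synaptic vesicles, was at 7.70, 8.21, 8.13 and 8.11 against 9.38, 9.29 and 9.26. It fell 2.42-fold (−1.27 ± 0.19, adjusted p = 0.00924), with every GFP-low array above every GFP-high array, and was kept in all 8 fits. Syt1, the calcium sensor of vesicle release, fell 2.33-fold (adjusted p = 0.0207), and its call was lost without GFP-high replicate 4, GFP-low replicate 1 or GFP-low replicate 3. With the mean of probe sets Syt1 was not called (−0.479, adjusted p = 0.256). Synapsin 1, Syn1 (−0.49, adjusted p = 0.299), and synaptophysin, Syp (−0.22, adjusted p = 0.812), were not called. Slc17a6, a vesicular glutamate transporter, differed by 0.13 (adjusted p = 0.801).

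Of 43 ion channels and transmitter receptors, 8 fell and none rose: the sodium channel genes Scn2a and Scn3b, the potassium channel genes Kcna1 and Kcnq3, the calcium channel genes Cacna1d and Cacna2d2, and the glutamate receptor genes Gria4 and Grik3. The median was −0.50 and 36 differences were negative, beside 1.20% of all genes that fell and 9285 of 18193 negative differences. Kcna1 was at 7.48, 7.64, 7.46 and 7.28 against 8.78, 8.88 and 8.81, a 2.56-fold fall (−1.36 ± 0.18, adjusted p = 0.00594). Scn3b, a regulatory beta subunit, was at 8.28, 8.10, 8.12 and 7.92 against 9.25, 9.45 and 9.20, a 2.29-fold fall (−1.20 ± 0.16, adjusted p = 0.00652). A second and dim Scn3b probe set differed by 0.316 (adjusted p = 0.76), and with the mean of probe sets Scn3b was not called (−0.44, adjusted p = 0.28). Scn2a was at 5.67, 5.62, 6.31 and 6.10 against 7.16, 7.25 and 7.26 (−1.30 ± 0.20, adjusted p = 0.00924). With the mean of probe sets Scn2a was not called either (−0.665, adjusted p = 0.084). Spread was smaller among the GFP-low arrays than among the GFP-high arrays in these 3 genes, and all 3 were kept in all 8 fits. Cacna2d3, a further calcium channel subunit that is in no list, fell from 7.28 ± 0.23 in GFP-low to 5.88 ± 0.36 in GFP-high cells (adjusted p = 0.00796) and was also kept. All 8 fits hold the E18 arrays, and with the 7 arrays alone Cacna2d3 was not called. With single arrays left out, 3 to 7 genes of the channel list were called, the fewest without GFP-low replicate 1 or 3. None was called without both arrays that stood apart.

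**Figure D4:**
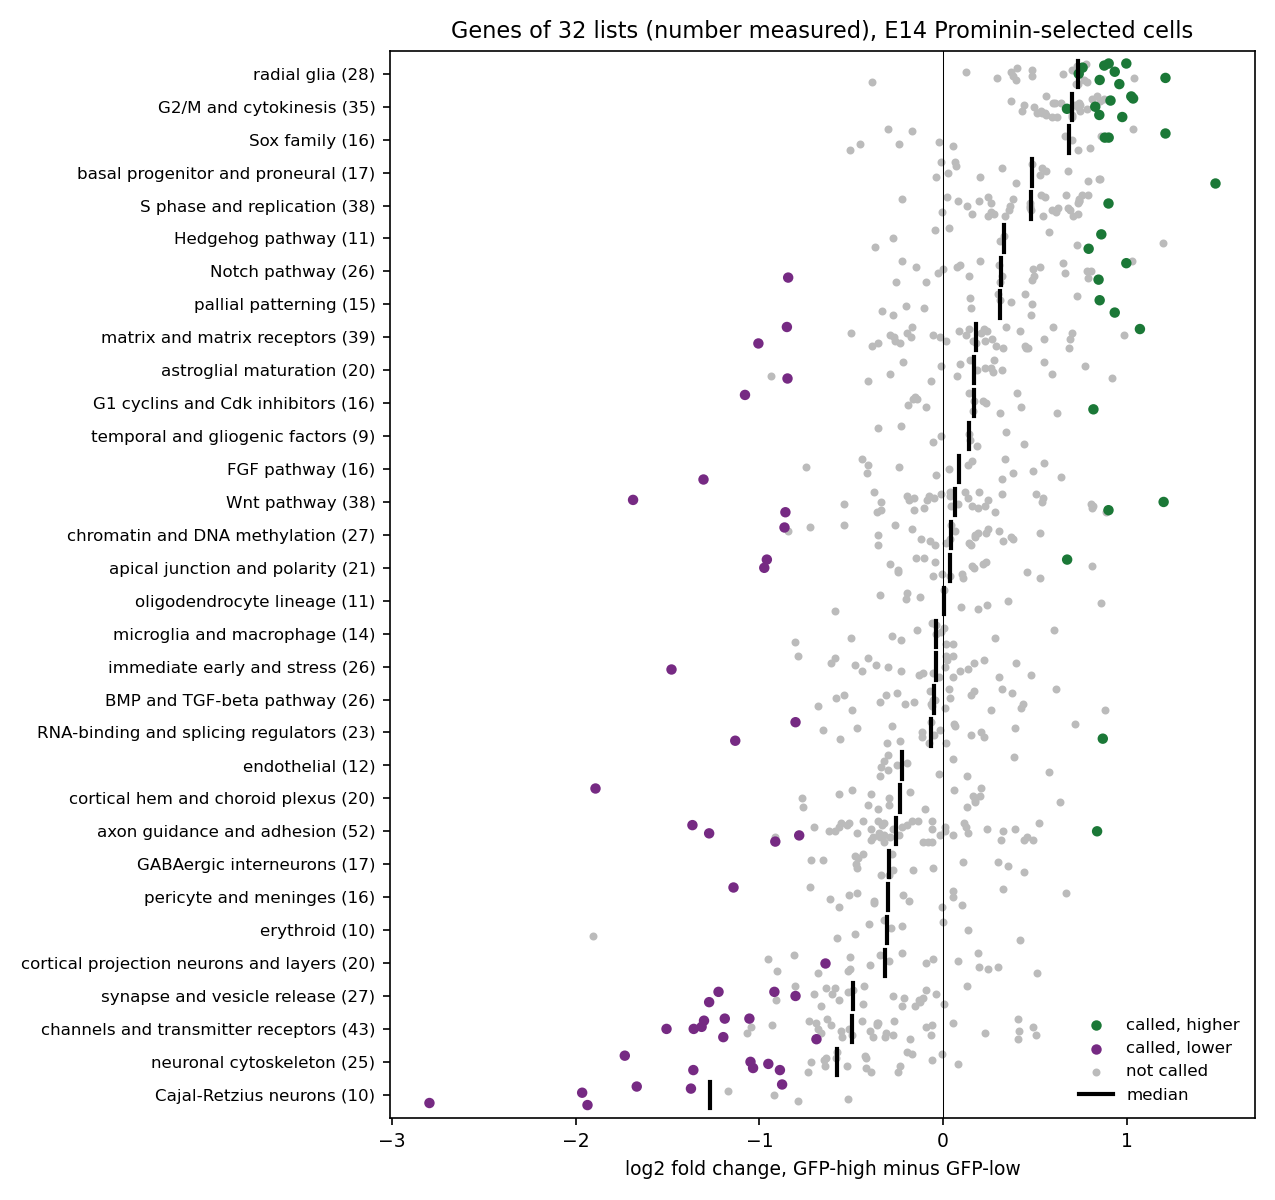
Log2 fold change (horizontal axis) of each measured gene of 32 lists (vertical axis, number measured in brackets), ordered by the median (black bar). Green points were called higher, purple points called lower and grey points not called; Cajal-Retzius neurons lie at the bottom with a median of −1.27 and radial glia and G2/M genes at the top with medians of 0.74 and 0.70.

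Of 20 markers of cortical projection neurons, 1 fell and none rose. Tle4, a corepressor of deep layer neurons, fell by 0.65 ± 0.14 (adjusted p = 0.0463) and lost its call without any single array. Tbr1, a deep layer factor, was at 8.91 ± 0.45 against 9.72 ± 0.17 (adjusted p = 0.144), Bcl11b, or Ctip2, differed by −0.68 (adjusted p = 0.126), Neurod6 by −0.40 (adjusted p = 0.390) and Cux2, of upper layers, by −0.22 (adjusted p = 0.618). The list median was −0.32. Of 52 genes of axon guidance and adhesion, Plxnd1, Robo1, Chl1 and Cntn2 fell and Sema5a rose, with a median of −0.25. Chl1, a neural adhesion molecule, was at 9.70, 10.06, 9.85 and 9.65 against 10.79, 10.69 and 10.70, a 1.88-fold fall (adjusted p = 0.0146) whose call was lost without GFP-low replicate 1. Robo1, a Slit receptor, fell by 1.27 ± 0.25 (adjusted p = 0.0319), while another of its probe sets reached 0.55 without being called. None of these genes was kept in all 8 fits.

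Other genes that fell in all 8 fits were spread over several functions and are named here in part. Clstn2, a calsyntenin of the synaptic membrane, was at 7.17, 7.38, 7.58 and 7.07 against 8.84, 8.81 and 8.87. It fell 2.90-fold (−1.54 ± 0.16, adjusted p = 0.00225), and its second probe set fell by 1.13 (adjusted p = 0.0283). Camk4, a calcium- and calmodulin-dependent kinase, was at 6.99, 6.93, 6.49 and 6.52 against 8.21, 8.68 and 8.02, a 2.98-fold fall (adjusted p = 0.0057). Cdh13, a cadherin anchored by a lipid, was at 7.38, 7.90, 7.52 and 7.30 against 8.93, 9.10 and 8.93 (−1.46 ± 0.17, adjusted p = 0.00324). Ptpro, a receptor tyrosine phosphatase, differed by −1.33 ± 0.17 with SDs of 0.07 and 0.03 (adjusted p = 0.0057). Lpl, lipoprotein lipase, fell 2.92-fold (8.77 ± 0.18 against 10.32 ± 0.19, adjusted p = 0.00611). Dnajc6, or auxilin, and Sh3gl2, or endophilin A1, which act in the recycling of synaptic vesicles, fell 2.32-fold and 2.68-fold. Erc2, a scaffold of the presynaptic active zone, fell 2.30-fold (adjusted p of these 3 genes 0.00567 to 0.00793). With the mean of probe sets, Camk4 (−0.62, adjusted p = 0.21), Dnajc6 (−0.255, adjusted p = 0.54) and Ptpro (−0.737, adjusted p = 0.0503) were not called. Mapk10, the neuronal kinase JNK3, and Ldb2, a cofactor of LIM-domain proteins, were among the largest falls (−1.84 ± 0.29 and −1.80 ± 0.32) but lost their calls without 2 and 4 of the 7 arrays. Without GFP-low replicate 3 their calls were lost, and the differences were −1.80 and −1.70. A second Mapk10 probe set, above the median gene in both groups, differed by only −0.646 and was not called (adjusted p = 0.122).

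Markers of other cell types that a cortical sort could hold were mostly near the bottom of the scale. Of 14 microglia and macrophage genes none was called and none had a group mean above the median gene; their summed signal was 193 to 260 on the GFP-high and 242 to 290 on the GFP-low arrays. Of 12 endothelial genes none was called, and 2 were above the median gene. Of 16 pericyte and meninges genes, Col1a1, a fibrillar collagen of fibroblasts, fell (4.40 ± 0.31 against 5.55 ± 0.46, adjusted p = 0.0325), with both means below 5.77; Cxcl12, which progenitors also express, was at 10.04 and 9.71 (adjusted p = 0.399). Of 17 interneuron genes none was called (median −0.29, and −0.45 without GFP-high replicate 2), with Gad1 at 6.61 and 7.09 and Dlx1 at 6.09 and 6.81. Of 11 oligodendrocyte genes none was called, with Olig2 at 5.25 and 5.06 and Pdgfra at 4.23 and 4.57. The erythroid gene Hbb-y was uneven among arrays, at 5.85, 7.21, 5.01 and 7.24 against 6.94, 7.92 and 9.83, and was not called (adjusted p = 0.302). The highest value was that of GFP-low replicate 3. The part of these cell types in the results was not tested.

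In the remaining lists few genes were called. Of 20 genes of astroglial maturation, Sparcl1, a matricellular protein, fell (5.54 ± 0.31 against 6.38 ± 0.20, adjusted p = 0.0407), and Gja1, connexin 43, differed by 0.92 (adjusted p = 0.0549). Of 39 matrix genes, Itga5, the fibronectin receptor subunit, rose (adjusted p = 0.0199) from 4.55 ± 0.39 to 5.63 ± 0.17, and the proteoglycan gene Vcan fell 2.01-fold (adjusted p = 0.0344). With the mean of probe sets, Itga5 (0.535, adjusted p = 0.147) and Vcan (−0.361, adjusted p = 0.332) were not called. Of 21 genes of apical junctions and polarity, Ctnna1, alpha-E-catenin, rose 1.60-fold (adjusted p = 0.0476), while its neuronal relative Ctnna2 fell 1.96-fold (adjusted p = 0.0325) and Prkcz, an atypical protein kinase C, fell 1.95-fold (adjusted p = 0.0471). Of 23 RNA-binding regulators, Ptbp1, the splicing repressor of progenitors, rose 1.83-fold (adjusted p = 0.0331), and the neuronal splicing regulators Rbfox1 and Celf4 fell 2.19-fold and 1.75-fold (adjusted p = 0.0153 and 0.0487). Other Ptbp1 probe sets differed by −0.16 and 0.11, and with the mean of probe sets Ptbp1 was not called (0.27, adjusted p = 0.427). Celf4 lost its call whichever array was left out, and the list median was −0.065. Of 16 FGF genes Dusp6, a phosphatase induced by FGF signalling, fell 2.48-fold (adjusted p = 0.0325), of 27 chromatin genes Dpf1, a subunit of the neuronal BAF complex, fell 1.82-fold (adjusted p = 0.0383), and of 26 immediate early genes Fosl2 fell (adjusted p = 0.0358). None of 26 BMP and TGF-beta genes and none of 9 temporal and gliogenic factors was called. None of these called genes was kept in all 8 fits.

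The contrast was next set beside the same contrast in E14 cells with no named gate (3 GFP-high and 3 GFP-low arrays), where 5 of the 6 libraries were labelled with an Affymetrix kit, so that gate and kit cannot be told apart. The difference between the contrasts was tested on all 17 arrays and was called for 1400 genes (7.70%). Of the 305 genes, 205 were among them. The gated difference was the smaller in 191 and the larger in 14, all 14 of them lower in GFP-high cells with the gate. Stmn2 differed by −1.73 with the gate and −4.83 without it (difference 3.10 ± 0.31, limma adjusted p = 5.6e-05). Rspo3 differed by −1.89 and −4.01 (2.12 ± 0.29, adjusted p = 0.00046), Pax6 by 0.85 and 3.07 (−2.21 ± 0.33, adjusted p = 0.000685) and Notch1 by 1.00 and 2.97 (−1.97 ± 0.28, adjusted p = 0.000528). Prom1 differed by 0.74 and 2.15 (−1.42 ± 0.22, adjusted p = 0.000966). In these genes the direction was shared and the gated difference was the smaller one.

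The Cajal-Retzius genes Calb2, Lhx1 and Ebf3 were among the 14. Calb2 differed by −1.94 with the gate and by 0.63 without it (−2.56 ± 0.49, adjusted p = 0.00355), Lhx1 by −1.96 and 0.31 (−2.27 ± 0.46, adjusted p = 0.00492) and Ebf3 by −0.88 and 0.78 (−1.65 ± 0.28, adjusted p = 0.00144). Dsp differed by −1.70 and −0.14 (−1.57 ± 0.38, adjusted p = 0.0166). Rbms1, an RNA-binding protein, differed by −1.31 and 0.49 (−1.80 ± 0.38, adjusted p = 0.00638) and Rcan2, a calcineurin inhibitor, by −1.50 and −0.03 (−1.47 ± 0.34, adjusted p = 0.0117). Reln differed by −2.80 and −1.97, and this difference was not called (−0.83 ± 0.37, adjusted p = 0.229), nor was that of Ndnf (−1.67 and −0.42, adjusted p = 0.142) or Neurog1 (1.48 and 2.79, adjusted p = 0.0588). In 21 of the 305 genes the ungated mean difference had the opposite sign.

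**Figure D5:**
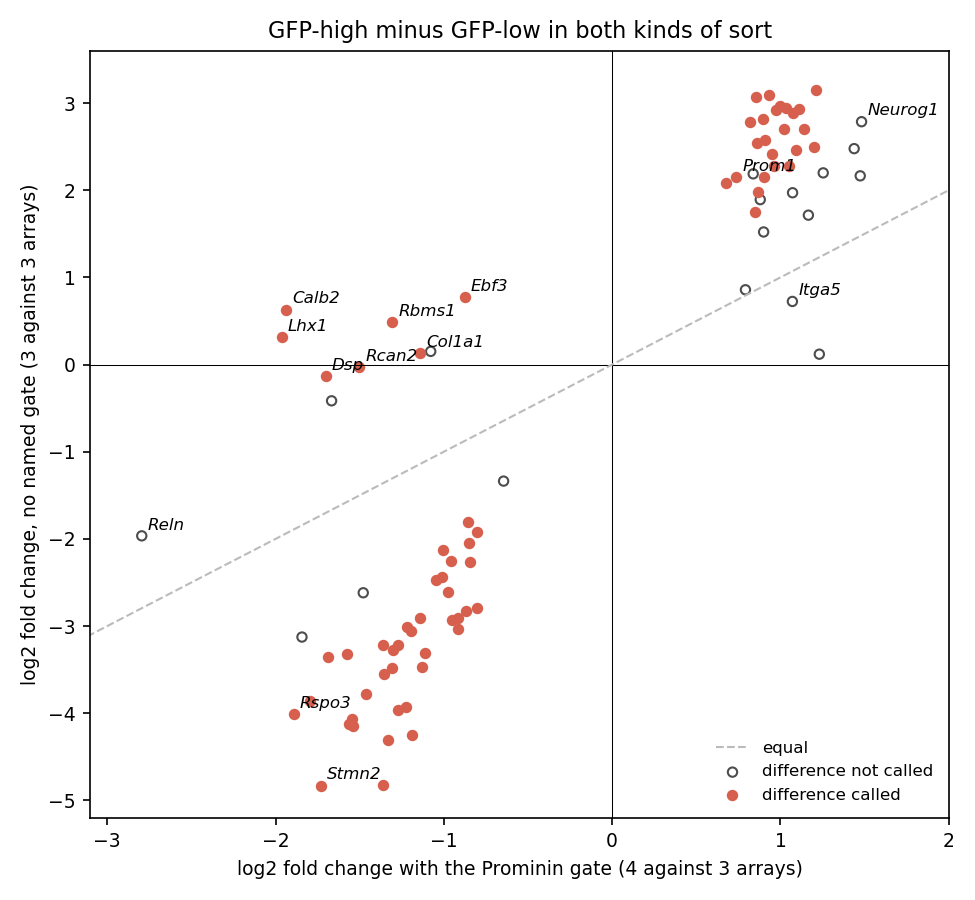
Log2 fold change of the 87 called named genes with the Prominin gate (horizontal axis) and with no named gate (vertical axis); filled points mark a called difference between contrasts, and the dashed line marks equal values. Most genes lie further from 0 on the vertical axis, such as Stmn2 at −1.73 and −4.83, while Calb2, Lhx1, Ebf3, Dsp and Rbms1 lie apart, near or above 0 on that axis. The ungated means of Calb2, Lhx1, Dsp and Rbms1 were all below 5.77, near the bottom of the scale.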

How the data were processed

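Members and gene lists were chosen with earlier results of these data known. Per the labels, total RNA came from RNeasy columns after DNase digestion and was hybridised to 1 Affymetrix mouse array per sample. The values are the intensity of 45101 probe sets, deposited by the authors as 1 linear signal each; summarisation software and scaling, not given in the sources used here, could shift low values. No 2 arrays were identical. After 64 control probe sets were left out, 34945 with 1 gene symbol were kept and 9160 had no listed gene; 34741 matched RefSeq (GRCm38.p6), and the brightest probe set stood for each of 18193 genes. Intensities plus a pseudocount of 16 were taken to log2 and quantile-normalised over 17 arrays. The array number limits the precision.

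The contrast was fitted with limma 3.58.1 in R 4.3.3 (lmFit, eBayes, two-sided) on the 11 Prominin-selected arrays, and the difference of contrasts on 17 arrays, with Benjamini-Hochberg adjustment over all genes; errors of differences are SEs and of levels SDs. The procedure was tested on simulated data. Figures and promoter searches used Python 3.11.15 with matplotlib 3.10.9. Alternatives were pseudocounts of 1 and 64, values as deposited, no dimmest 40% of genes, mean of probe sets, array weights, an intensity trend, the 7 arrays alone, a Gapdh covariate, a replicate block and arrays left out. Same-numbered arrays correlated at −0.14 to −0.02 after group means were removed and were not taken as pairs. GFP-high and GFP-low arrays with different numbers correlated at −0.08 to 0.225, the highest for GFP-high replicate 1 with GFP-low replicate 2. Whether such arrays share a batch was not tested. The rule named Eomes, Fabp7, Gfap, Pax6, Prom1, Slc1a3 and Tubb3 in any case, the top 15 rises and top 15 falls without overlap whose higher mean was above the median gene. To these came up to 4 called members of each of 32 lists with the lowest p and up to 15 genes a direction called in all 8 fits. Last came up to 5 genes a direction with the largest gated minus ungated difference. These were taken only from genes called both in the gated contrast and in that difference, whose gated contrast was larger than the ungated one. List members named beyond these were chosen after their values were seen.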

Additional observations from a re-analysis of the deposited data

Results flagged for a closer look

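On GFP-high arrays, 5 control signals and 92 named genes were examined for 1 array far from the other 3; about 1 in 20 such groups would be marked by chance. GFP-high replicate 1 lay apart in the Gapdh 3′ minus 5′ difference (0.541, others 1.56 to 1.71), in that of Actb (0.891, others 1.43 to 1.51) and in the dap spike-in signal (4085, others 4.53 to 22.3). GFP-high replicate 2 had the highest median signal (39, others 29.0 to 30.6). Among genes, replicate 1 was lowest for Ptbp1 (9.18, others 9.53 to 9.58) and Slc1a3 (7.68, others 8.42 to 8.55). Replicate 2 was lowest for Boc (8.64, others 8.94 to 8.95) and Pawr (6.07, others 6.95 to 7.02). Replicate 4 was highest for Eomes (12.11, others 12.02 to 12.03) and lowest for Sv2a (6.93, others 7.49 to 7.55).

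Of the genes named by rule, 10 are given here for a called difference between the gated and ungated GFP contrasts. Calb2, Lhx1, Ebf3, Dsp and Rbms1 were picked because this difference was called, so their calls are no further evidence. The other genes given were named in any case. So were Gfap (−0.45, limma adjusted p = 0.686) and Slc1a3, whose differences were not called. The gated minus ungated difference was −2.56 for Calb2, −2.27 for Lhx1, −1.65 for Ebf3, −1.57 for Dsp and −1.80 for Rbms1. It was −1.76 for Eomes, −1.49 for Fabp7, −2.21 for Pax6, −1.42 for Prom1 and 1.54 for Tubb3. For Eomes, Fabp7 and Tubb3 the gated difference alone was not called.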

How the results depend on the processing

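Against 305 genes, the count was 74 with a pseudocount of 1, 554 with 64, 507 without the dimmest 40% of genes, 143 with the mean of probe sets, 466 with an intensity trend, 174 with the Gapdh covariate and 58 with the 7 arrays alone (89.7% lower against 71.5%). It was 76 to 228 with 1 array left out and 6 with the first GFP-high and the third GFP-low array both left out. A replicate block left 9 genes, all lower, 8 of them among the 305, although the numbers were not shown to be pairs. Values as deposited gave 265 and array weights 422. The mean of probe sets moved the difference by over 1.5 times in 36 of 92 named genes (Reln −1.46, Neurog1 0.70, Sox3 0.47), a pseudocount of 64 in 20, a pseudocount of 1 in 7 and the values as deposited in 1 (Lrig1). Genes not called with the mean of probe sets also included Apc, Boc, Cdt1, Chl1, Ctnna1, Dpf1, Ebf3, Robo1 and Tle4 (adjusted p = 0.185 to 0.835). Of 87 named called genes, 83 lost the call in at least 1 of 18 settings, and 15 kept it in every setting other than the block and the pair left out. None reversed. Gfap, not called, was −0.047 with the mean of probe sets and −0.047 to 0.741 with 1 array left out, the lowest without GFP-low replicate 2, against 0.322. The difference of contrasts kept 1033 to 1783 genes in 21 settings (1400 in the main one, 1061 with a replicate block). The hem and choroid plexus median ran from −0.39 to −0.06. List medians kept their sign in all 18 settings except for oligodendrocyte (7 settings), BMP (4), apical junction (4), FGF (2), RNA-binding (2) and microglia (1). Of 399 other probe sets of 206 called genes, 314 had the same sign, but only 25 were called with it, and 0 were called in the opposite one. Of 146 above the median gene, 140 had the same sign and 24 were called with it.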

Other observations

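Further genes outside the lists fell in all 8 fits and were chosen for description after their values were seen. Runx1t1, a transcriptional corepressor, was at 8.08 ± 0.37 in GFP-high and 9.50 ± 0.29 in GFP-low cells, and Hivep3, a zinc finger factor, at 6.95 ± 0.12 and 8.01 ± 0.03. Cell surface genes included Cd200, an immunoglobulin-family glycoprotein (6.90 ± 0.27 and 8.39 ± 0.06), Ntm, the adhesion molecule neurotrimin (6.83 ± 0.28 and 8.17 ± 0.22), and Flrt2, a ligand of Unc5 receptors (8.14 ± 0.10 and 9.15 ± 0.05). Adamts3, a secreted protease that cleaves Reelin, was at 7.49 ± 0.41 and 8.90 ± 0.08. Of signalling and metabolic enzymes, Pde4d, a cyclic AMP phosphodiesterase, fell 1.97-fold and Pfkp, a phosphofructokinase, 1.92-fold. Reep1, which shapes the endoplasmic reticulum, fell 2.25-fold and Jph4, a junctophilin, 1.90-fold. Adjusted p in limma was 0.00594 to 0.0108 for these 10 genes (n = 4 and 3). With the 7 arrays alone, without the E18 arrays, Runx1t1, Adamts3 and Jph4 were not called.

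Of the 14 genes with a larger gated than ungated difference, Zcchc12, a transcriptional coactivator, was at 6.58 ± 0.29 and 7.75 ± 0.44 with the gate (limma adjusted p = 0.0290), while its ungated difference was 0.28. Phf8-ps, Gm11346, Rp1, Pcdhb9, Gm19531 and Actrt1 had both gated means below the highest group mean of Gfap.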
